A study of Mus musculus with 2 samples.

Results

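The genes described here are 4 subunits of the transcription factor NF-kB (Nfkb1, Nfkb2, Rel and Relb), 3 inhibitors of the IkB family (Nfkbia, Nfkbie and Nfkbiz) and 3 feedback regulators of the pathway (Tnfaip3, Tnip1 and Birc3). They were chosen by symbol, and 10 of the 31053 genes in the count matrix bear these symbols. The choice was made with earlier results of these data known. The data are single-cell RNA-seq of tumor-associated neutrophils (TANs), sorted as CD11b+Ly6G+ cells from subcutaneous LLC tumors, which grow from a line of mouse lung carcinoma cells. The Smad3-WT library came from C57BL/6 mice with intact Smad3 (Smad3+/+) and the Smad3-KO library from Smad3-deficient (Smad3-/-) mice of the same strain, aged 8 to 12 weeks in both groups. Per the study's methods, each library pooled 8 tumors, mice of both sexes were used, and the knockout allele has a deleted exon and a disrupted neighbour. There is 1 library per genotype, so values between genotypes have no replicate error, no test was made, and genotype and library cannot be told apart.

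NF-kB is a family of dimeric transcription factors that rest in the cytoplasm bound to IkB proteins. Signals from TNF, interleukin-1 or Toll-like receptors lead to the breakdown of IkB, and the freed dimers enter the nucleus and start transcription of inflammatory genes. Among the genes they switch on are their own inhibitors, which then damp the response, and in neutrophils this loop governs cytokine output and survival.

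Because the inhibitors are textbook NF-kB targets, the bases before the transcription start are shown for 5 of the 10 genes, with matches to the kB consensus in capitals. All 5 hold a match. Birc3, whose window holds 0, is not shown, though its ratio between libraries is not below those of Rel and Nfkb2. The kB consensus is the 10-base motif that begins with GGG and ends with CC and whose inner 5 bases are a purine, any base, A or T, and a pair of pyrimidines, and it was searched on both strands, with overlapping matches counted. The sequences are RefSeq promoter windows on build GRCm38.p6, cut to the 250 bases before the start and written on the strand of the gene, and 7 of the 10 genes have such a window. The start is that of the RefSeq entry. In GENCODE, another annotation, Nfkb2 starts at 46304320, so its window shown lies inside the gene. Tnfaip3, on the minus strand, starts at 19015657 there, so most of its window shown does too.
Tnfaip3, chr10:19015411-19015660, minus strand: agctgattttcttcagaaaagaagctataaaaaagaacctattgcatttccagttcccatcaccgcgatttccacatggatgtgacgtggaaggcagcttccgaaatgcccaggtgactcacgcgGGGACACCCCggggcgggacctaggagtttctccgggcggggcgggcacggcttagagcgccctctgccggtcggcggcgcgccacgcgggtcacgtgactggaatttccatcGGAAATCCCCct
Tnip1, chr11:54962941-54963190, minus strand: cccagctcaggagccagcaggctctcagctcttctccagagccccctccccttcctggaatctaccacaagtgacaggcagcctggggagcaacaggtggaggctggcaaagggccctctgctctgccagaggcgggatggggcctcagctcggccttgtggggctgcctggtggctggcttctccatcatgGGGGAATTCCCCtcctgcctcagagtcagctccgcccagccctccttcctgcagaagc
Nfkbia, chr12:55492648-55492897, minus strand: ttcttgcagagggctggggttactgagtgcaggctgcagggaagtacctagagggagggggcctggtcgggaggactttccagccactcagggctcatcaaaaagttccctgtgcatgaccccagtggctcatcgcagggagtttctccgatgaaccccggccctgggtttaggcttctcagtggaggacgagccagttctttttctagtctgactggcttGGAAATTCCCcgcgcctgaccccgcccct
Rel, chr11:23770970-23771219, minus strand: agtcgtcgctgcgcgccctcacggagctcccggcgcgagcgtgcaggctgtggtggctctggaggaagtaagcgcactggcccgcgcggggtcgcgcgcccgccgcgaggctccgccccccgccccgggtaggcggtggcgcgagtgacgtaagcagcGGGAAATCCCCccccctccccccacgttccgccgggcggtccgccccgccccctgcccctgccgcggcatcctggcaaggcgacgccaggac
Nfkb2, chr19:46304487-46304736, plus strand: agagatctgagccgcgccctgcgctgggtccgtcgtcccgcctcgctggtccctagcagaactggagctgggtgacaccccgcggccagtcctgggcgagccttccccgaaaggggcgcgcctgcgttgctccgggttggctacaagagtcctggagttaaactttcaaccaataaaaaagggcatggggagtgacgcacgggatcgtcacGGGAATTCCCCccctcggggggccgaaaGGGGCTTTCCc
At least 1 match was found for 6 of the 7 genes with a window, Nfkbie being the sixth and Birc3 the gene with 0, against 4.46% of all 27025 genes with a window. Nfkb2 has 3 windows and Tnfaip3 a second one, and the one with the most matches is shown. Over all windows, 8 of the 10 hold a match, against 3.90% of 32851, and the second Tnfaip3 window holds 0. The match nearest to the start lies 12 to 3 bases before it in Tnfaip3 and 29 to 20 bases before it in Nfkbia, on the other strand in both. The same ends with any 5 inner bases were present for 7 of the 7 genes but also for 48.7% of all genes. A match describes letters and shows no binding. The other genes lie on chromosome 3 (Nfkb1), chromosome 7 (Relb), chromosome 9 (Birc3), chromosome 16 (Nfkbiz) and chromosome 17 (Nfkbie).

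The unit of measurement is the UMI, a tag that counts 1 captured RNA molecule. After filters on cells, 3520 cells (12176201 UMIs) of the Smad3-WT library and 2433 cells (4146792 UMIs) of the other remained, and 73 barcode sequences occurred in both libraries. Cells were grouped by clustering without the 10 genes and without Tnf, and clusters were named by marker genes. Neutrophil-like cells numbered 1823 in Smad3-WT and 1081 in Smad3-KO, with medians of 740 and 1010 UMIs per cell, so the label of the sort held for 51.8% and 44.4% of cells. Of 19 neutrophil marker genes, 18 had UMIs in the Smad3-WT and 19 in the Smad3-KO neutrophil-like cells, and their summed level was 91491 and 117652 UMIs on a counts-per-million scale (CPM). Within Smad3-KO the sum was 82854 CPM in the 781 cells of cluster 3 and 36621 CPM in cluster 7, clusters described below. It was 166516 CPM in cluster 1 and 332300 CPM in the 69 cells of cluster 11. The same markers named the clusters. The other named classes were macrophage or monocyte-like (1076 and 112 cells), dendritic-like (99 and 86), T or NK-like (62 and 469), B cell-like (3 and 569), LLC carcinoma-like (401 and 25) and fibroblast-like (52 and 68). The 3 Smad3-WT B cell-like cells and the 25 Smad3-KO carcinoma-like cells, whose median of 614 UMIs compares with 13326 in Smad3-WT, were left out of comparisons. In a 5′ library UMIs lie toward the start of the transcript, but where those of Smad3 lie relative to the deleted part was not examined. Smad3 stood at 18.1 CPM in Smad3-WT and 171 CPM in Smad3-KO neutrophil-like cells and was not used to check the genotype.

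The levels of all 10 genes in neutrophil-like cells were higher in the Smad3-KO than in the Smad3-WT library. A level is the UMIs of a gene summed over the cells of a group and scaled to the total UMIs of that group, in CPM, with an exact Poisson interval at 95%, and a ratio of levels carries an exact interval from the split of the UMIs. All intervals cover counting error only. Of the 10 genes, 8 were at least 2-fold higher in Smad3-KO, where 7.75% of 6029 genes with at least 20 UMIs were. The median ratio was 2.82 over the 10 genes and 0.789 over all genes tested, and 0 of the 10 were at least 2-fold lower, as 18.4% of genes were. Most Smad3-WT neutrophil-like cells lay in cluster 1 and most Smad3-KO cells in cluster 3, so these ratios compare different clusters. Marker genes of macrophages and monocytes summed to 798 CPM in Smad3-WT and 925 CPM in Smad3-KO neutrophil-like cells, with 16 of 16 detected in each. Cd68 (372 and 420 UMIs) and Ly6c2 (326 and 328 UMIs) had the most, at 0.317 to 0.633 of their macrophage or monocyte-like level. The median over the 16 markers was 0.0254 in Smad3-WT and 0.0322 in Smad3-KO, so the sum is not a measure of macrophage RNA alone. Among neutrophil-like cells with 0 UMIs of these markers, 8 of the 10 genes were also at least 2-fold higher in Smad3-KO, where 8.05% of 4396 genes were.

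**Figure D1:**
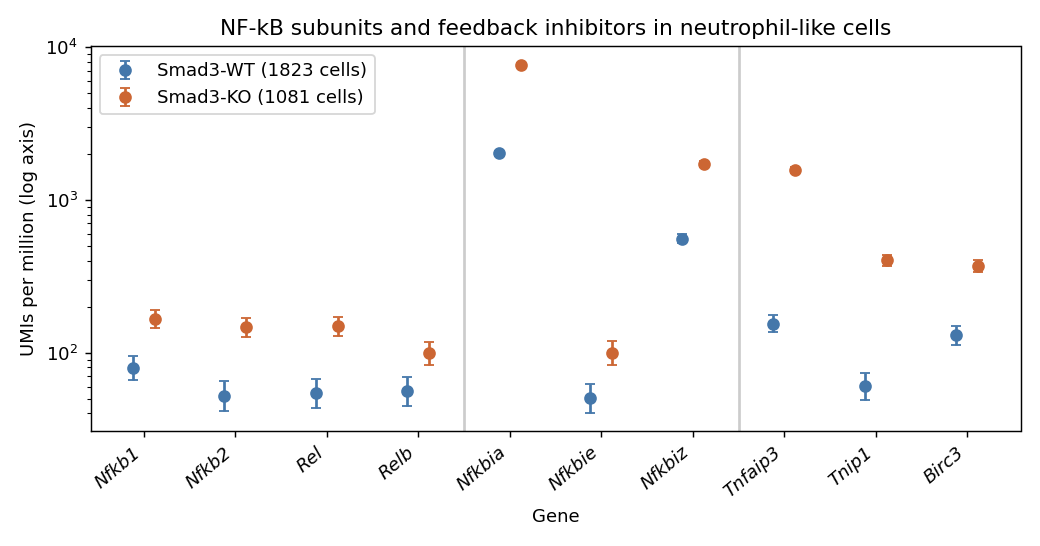
Level of each gene in CPM (log axis) in neutrophil-like cells of the Smad3-WT (1823 cells, blue) and Smad3-KO library (1081 cells, orange), with exact Poisson intervals at 95%. Grey lines part subunits, IkB inhibitors and feedback regulators, and every Smad3-KO interval lies above its Smad3-WT counterpart, with the widest gap at Tnfaip3 (155 to 1572).

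The 4 subunits had ratios of 1.77 to 2.80 between the libraries. Nfkb1 (ENSMUSG00000028163) encodes p105, the precursor of p50, which dimerizes with Rela or Rel. It stood at 79.8 CPM (66.6 to 94.8) in Smad3-WT and 165 CPM (144 to 189) in Smad3-KO, a ratio of 2.07 (1.66 to 2.60). Nfkb2 (ENSMUSG00000025225) encodes p100, the precursor of p52 in the non-canonical pathway. Its level was 52.3 CPM (41.8 to 64.8) in Smad3-WT and 146 CPM (126 to 169) in Smad3-KO, a ratio of 2.80 (2.15 to 3.66). Rel (ENSMUSG00000020275), which encodes c-Rel, stood at 54.2 CPM (43.4 to 66.9) and 149 CPM (129 to 172), a ratio of 2.76 (2.13 to 3.59). Relb (ENSMUSG00000002983), the partner of p52, had the lowest ratio of the 10 genes, 1.77 (1.34 to 2.34), from 56.1 CPM to 99.1 CPM. The remaining subunit gene, Rela, was not among the 10 and was looked at after the values were seen. It stood at 75.4 CPM in Smad3-WT and 85.4 CPM in Smad3-KO, and the interval of its ratio of 1.13 (0.868 to 1.48) includes 1. The ratios of the 4 subunits have overlapping intervals, and their order cannot be told from these counts.

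Of the IkB inhibitors, Nfkbia and Nfkbiz differed by over 3-fold and Nfkbie by less. Nfkbia (ENSMUSG00000021025) encodes IkB-alpha, the inhibitor that holds NF-kB in the cytoplasm and is resynthesized after each activation. It had 3234 UMIs in Smad3-WT and 10029 UMIs in Smad3-KO neutrophil-like cells, or 2015 CPM (1947 to 2086) and 7644 CPM (7495 to 7795), a ratio of 3.79 (3.65 to 3.95). Nfkbiz (ENSMUSG00000035356) encodes IkB-zeta, an atypical nuclear member of the family that acts with p50 on secondary response genes. Its level was 557 CPM (521 to 594) in Smad3-WT and 1709 CPM (1639 to 1781) in Smad3-KO, a ratio of 3.07 (2.84 to 3.32). Nfkbie (ENSMUSG00000023947), which encodes IkB-epsilon, had 81 and 131 UMIs, or 50.5 and 99.9 CPM. Its ratio of 1.98 (1.49 to 2.64) was just short of 2-fold and lay below those of Nfkbia and Nfkbiz with no overlap of the intervals.

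Among the feedback regulators, Tnfaip3 and Tnip1 had the largest ratios of the 10 genes. Tnfaip3 (ENSMUSG00000019850) encodes A20, a ubiquitin-editing enzyme that ends signalling from TNF and Toll-like receptors. It stood at 155 CPM (136 to 175) in Smad3-WT and 1572 CPM (1505 to 1641) in Smad3-KO, with a ratio of 10.2 (8.91 to 11.6), whose interval lies above those of the other 9 genes. Tnip1 (ENSMUSG00000020400) encodes ABIN1, a ubiquitin-binding partner of A20. Its level was 60.5 CPM (49.0 to 73.7) in Smad3-WT and 402 CPM (368 to 437) in Smad3-KO, a ratio of 6.64 (5.34 to 8.34). Birc3 (ENSMUSG00000032000), which encodes the ubiquitin ligase cIAP2, stood at 129.6 CPM (113 to 148) and 369.7 CPM (338 to 404), a ratio of 2.85 (2.42 to 3.37) that overlaps those of Nfkb2 and Rel.

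The difference was also seen in how many of the genes 1 cell carried. To compare cells of unlike depth, each was thinned to 500 UMIs. At that depth Nfkbia was detected in 44.5% of Smad3-WT (42.2 to 46.8, exact Clopper-Pearson) and 82.0% of Smad3-KO neutrophil-like cells (79.5 to 84.2), against 55.2% and 87.5% without thinning. Tnfaip3 was detected in 6.09% (5.04 to 7.29) and 42.1% (39.1 to 45.1), against 10.3% and 59.2% without thinning. Nfkbiz was detected in 20.5% and 50.5%, Tnip1 in 2.96% and 16.2%, Birc3 in 5.54% and 16.0%, and each subunit in 2.41% to 3.62% of Smad3-WT and 4.995% to 6.75% of Smad3-KO cells. The thinned cells carried a mean of 0.939 of the 10 genes in Smad3-WT and 2.37 in Smad3-KO. The share of cells with none of the 10 was 37.0% in Smad3-WT against 8.97% in Smad3-KO, and that with 3 or more was 5.98% against 44.9%. Free RNA can add UMIs to a droplet, and its part in the shares that follow was not tested. S100a9, used here as a neutrophil marker, was detected in 13.9% of thinned T or NK-like, 19.9% of B cell-like, 27.9% of dendritic-like and 40.2% of macrophage or monocyte-like cells of Smad3-KO. Tnfaip3 was detected in 4.90%, 6.33%, 11.6% and 11.6% of these, whose medians before thinning were 1376, 1244, 3416.5 and 2352 UMIs.

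**Figure D2:**
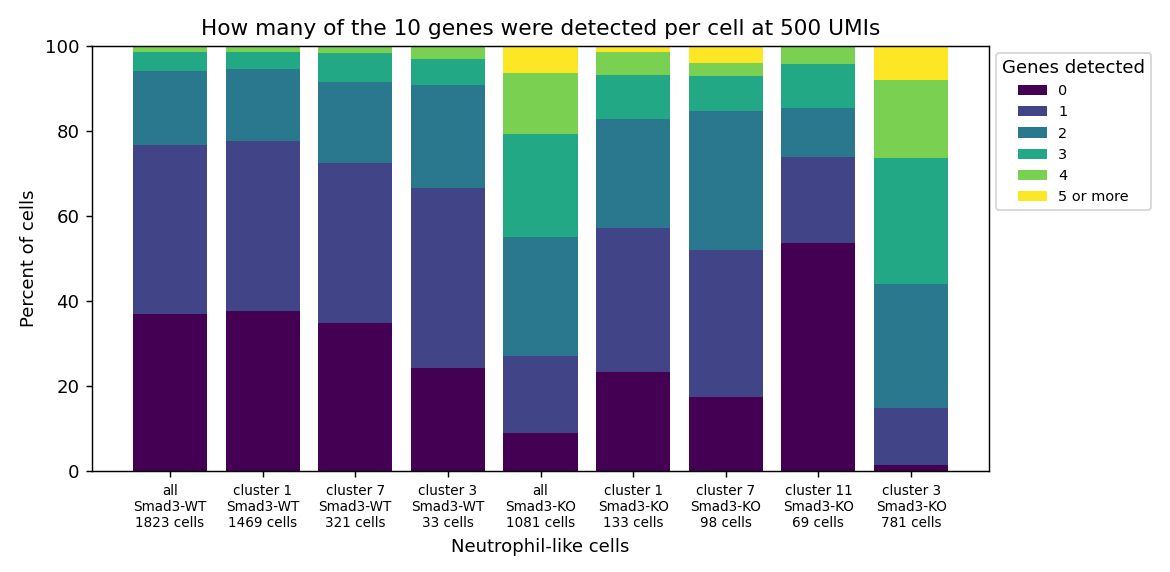
Percent of neutrophil-like cells, each thinned to 500 UMIs, by how many of the 10 genes were detected (colour), for each library and cluster with at least 20 cells. The cluster 3 cells of the Smad3-KO library are the group with the fewest cells at 0 (1.54%) and the most at 3 or more (56.0%).

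The neutrophil-like clusters differed from each other in the 10 genes within the Smad3-KO library. Cluster 1, led by H2-Q10, Mmp9, G0s2 and Il1r2, held 1469 Smad3-WT and 133 Smad3-KO cells. Cluster 3, led by Il1a, Tnfaip3, Csf3 and Lcn2, held 33 and 781 cells, cluster 7, led by Ifit3b, Gm13822, Ifit3 and Ifit1, held 321 and 98, and cluster 11, led by Ngp, Camp, Ltf and Ly6g, held 0 and 69. Where nearly all cells of a cluster come from 1 library, library and kind of cell cannot be told apart. Over the 10 genes together, the Smad3-KO level was 15147 CPM in cluster 3, 6204 CPM in cluster 7, 4943 CPM in cluster 1 and 2875 CPM in cluster 11. The 3 Smad3-WT clusters were closer to each other, at 3167 CPM in cluster 1, 3299 CPM in cluster 7 and 4408 CPM (3633 to 5299) in the 33 cells of cluster 3, and the intervals of clusters 1 and 7 overlap. Within Smad3-KO, 8 of the 10 genes were at least 2-fold higher in cluster 3 than in cluster 1, where 22.2% of genes were, and the median ratio was 3.95. Clusters are made from expression, so these values describe them and test nothing.

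Within clusters, the ratios between libraries varied. In cluster 1, 3 of the 10 genes were at least 2-fold higher in Smad3-KO, where 9.05% of genes were, namely Tnfaip3 at 2.56 (1.73 to 3.69), Birc3 at 2.28 (1.47 to 3.42) and Nfkbiz at 2.18 (1.78 to 2.64). Nfkbia had a ratio of 1.39 (1.22 to 1.58) there, with 260 UMIs in Smad3-KO and 2560 in Smad3-WT. The 4 subunits and Nfkbie had 1 to 7 Smad3-KO UMIs in cluster 1, and a difference in them was not detectable at this depth. Of these, Nfkbie at 0.198 (0.00495 to 1.14), Relb at 0.397 (0.0471 to 1.49), Nfkb1 at 0.611 and Nfkb2 at 0.783 pointed the other way, with intervals that include 1. In cluster 7, led by interferon-induced genes, 4 of the 8 genes with at least 20 UMIs were at least 2-fold higher in Smad3-KO, where 14.2% of genes were. For Nfkb1 and Nfkb2, with 9 and 13 UMIs each, the interval of 0.961 to 6.44 includes 1. Tnfaip3 stood there at 204 CPM in Smad3-WT and 833 CPM in Smad3-KO, a ratio of 4.07 (2.79 to 5.95), and Tnip1 at 106 and 403 CPM, a ratio of 3.81 (2.21 to 6.57). In cluster 3, Tnfaip3 had 5 UMIs in the 33 Smad3-WT cells (195 CPM) and 1928 UMIs in the 781 Smad3-KO cells (1973 CPM), a ratio of 10.1 (4.33 to 31.2) that overlaps that over all neutrophil-like cells. Nfkbia had a ratio of 3.36 (2.66 to 4.30) in this cluster, from 72 Smad3-WT UMIs.

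The same genes were read in the other cell classes of the sort. In macrophage or monocyte-like cells (clusters 2 and 8), 5 of the 10 genes were at least 2-fold higher in Smad3-KO, where 11.5% of genes were. Tnfaip3 stood at 32.4 CPM (27.3 to 38.1) in Smad3-WT and 309 CPM (248 to 381) in Smad3-KO, a ratio of 9.53 (7.23 to 12.5) that overlaps the one in neutrophil-like cells. The others were Tnip1 at 3.05 (1.96 to 4.604), Nfkbiz at 2.87 (2.22 to 3.67), Nfkbia at 2.56 (2.31 to 2.84) and Birc3 at 2.06 (1.42 to 2.93). Nfkbie was lower, with 195 UMIs in Smad3-WT and 5 UMIs in Smad3-KO, or 43.9 and 17.6 CPM, a ratio of 0.400 (0.128 to 0.9495). S100a8 and S100a9, used here as neutrophil markers, had UMIs in this class at 0.0566 to 0.0752 of their neutrophil-like level in either library. Il1b, which macrophages also express, stood at 0.121 in Smad3-WT and 0.149 in Smad3-KO. Tnfaip3 stood at 0.210 and 0.197 of its neutrophil-like level, and the part of free neutrophil RNA in these ratios was not tested. The class joins macrophages and monocytes, and whether its S100a8 and S100a9 UMIs are free RNA or its own was not tested. Leaving out cells that hold them can also change the mix and depth of the cells. In the cells of this class with 0 UMIs of S100a8 and S100a9 (533 Smad3-WT and 48 Smad3-KO cells), the ratio was 5.56 (2.95 to 9.97) for Tnfaip3 and 2.70 (1.29 to 5.14) for Tnip1, but 1.24 (0.956 to 1.58) for Nfkbia, 1.93 (0.933 to 3.61) for Nfkbiz and 1.64 (0.795 to 3.05) for Birc3, whose intervals include 1. Rel at 2.61 (1.19 to 5.11) and Nfkb1 at 2.34 (1.26 to 4.03) were past 2-fold in these cells, from 10 and 15 Smad3-KO UMIs. In the whole class their ratios were 1.60 and 1.97. Nfkb2 at 1.20 and Relb at 1.56 had intervals that include 1.

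In dendritic-like cells (cluster 9), 3 of the 10 genes were at least 2-fold higher in Smad3-KO, where 10.5% of genes were. Nfkbia stood at 336 CPM in Smad3-WT and 1482 CPM in Smad3-KO, a ratio of 4.41 (3.69 to 5.30), and Tnfaip3 at 52.5 and 232 CPM, a ratio of 4.41 (2.78 to 7.21). Nfkbiz had a ratio of 2.53 (1.59 to 4.08), while Nfkb2 was lower, at 141 and 86.8 CPM, with a ratio of 0.617 (0.387 to 0.963). Among dendritic-like cells with 0 UMIs of S100a8 and S100a9, 51 and 39 in number, the ratio was 2.49 (1.86 to 3.35) for Nfkbia and 2.44 (1.03 to 6.07) for Tnfaip3. The Nfkbiz ratio turned to 0.813 (0.179 to 3.04) in them, from 8 Smad3-WT and 4 Smad3-KO UMIs, and that of Nfkb2 was 0.578 (0.305 to 1.04), and both intervals include 1. T or NK-like cells (cluster 4) had 1 of the 10 genes at least 2-fold higher, Tnip1, where 13.2% of genes were, and their median ratio of 0.994 was close to that of all genes, 0.958. Nfkb2 had 26 UMIs in each library there, or 93.0 CPM in Smad3-WT and 32.9 CPM in Smad3-KO, a ratio of 0.354 (0.198 to 0.635). Without cells holding S100a8 or S100a9 (27 Smad3-WT and 352 Smad3-KO cells remained), Tnip1 was no longer past 2-fold, at 1.36 (0.635 to 3.33), and Rel stood at 0.282 (0.106 to 0.771) in place of 0.926, from 9 and 11 UMIs. The Tnfaip3 ratio of 1.45 (0.882 to 2.50) in this class includes 1 and lies below the interval in neutrophil-like cells.

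**Figure D3:**
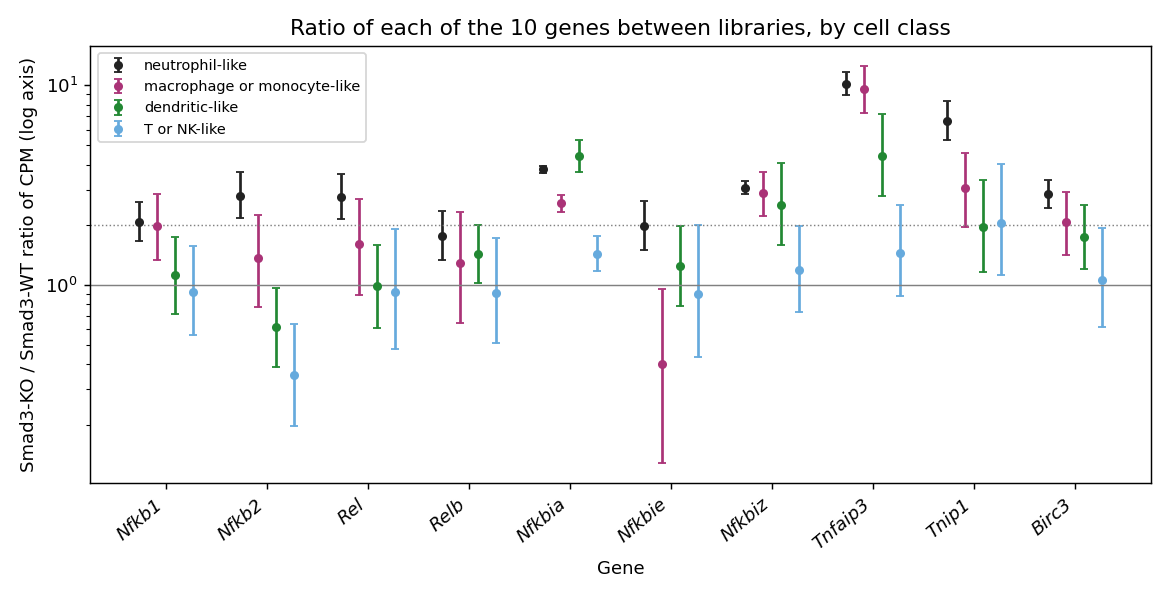
Ratio of CPM between the Smad3-KO and Smad3-WT library (log axis) for each of the 10 genes in 4 cell classes, with exact intervals at 95% that cover counting error only. The solid line marks a ratio of 1 and the dotted line 2. Among these 4 classes Tnfaip3 runs from 1.45 in T or NK-like cells to 10.2 in neutrophil-like cells. Fibroblast-like cells are not drawn.

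Ordered over 12 groups of class and library, 8 of the 10 genes had their highest level in Smad3-KO neutrophil-like cells. The share of all genes that are highest in this group was not counted. Tnfaip3 followed the order 1572 CPM there, 309 in macrophage or monocyte-like, 232 in dendritic-like and 206 in B cell-like cells of Smad3-KO, 155 in Smad3-WT neutrophil-like cells, 104 and 71.5 in T or NK-like cells of Smad3-KO and Smad3-WT, 70.0 in Smad3-KO fibroblast-like cells, and 52.5, 52.0, 32.4 and 9.60 in Smad3-WT dendritic-like, fibroblast-like, macrophage or monocyte-like and LLC carcinoma-like cells. The first and the last of these overlap with no other group. Between them, each interval overlaps the next one down, except that Smad3-WT neutrophil-like cells lie apart from the group on either side. Among Smad3-KO cells without UMIs of S100a8 and S100a9, Tnfaip3 stood at 130 CPM in macrophage or monocyte-like and 95.2 CPM in dendritic-like cells. These levels, from 16 and 15 UMIs, are below the 155 CPM of all Smad3-WT neutrophil-like cells. B cell-like cells were not read in this way, and the part of free neutrophil RNA in the order was not tested. Nfkbia was highest in neutrophil-like cells of either library, at 7644 and 2015 CPM, and lowest at 336 CPM in Smad3-WT dendritic-like and 365 CPM in LLC carcinoma-like cells, whose intervals overlap. Relb and Nfkbie were instead highest in Smad3-KO dendritic-like cells, Relb at 223 CPM (176 to 279) against 155 CPM (122 to 195) in Smad3-WT dendritic-like and 99.1 CPM in Smad3-KO neutrophil-like cells, and Nfkbie at 113 CPM (80.3 to 154) against 99.9 CPM. For Nfkb2, Smad3-KO neutrophil-like cells at 146 CPM and Smad3-WT dendritic-like cells at 141 CPM (109 to 179) had overlapping intervals. For Rel, B cell-like cells of Smad3-KO came second, at 105 CPM (85.0 to 127). LLC carcinoma-like cells, the tumor cells themselves, had the lowest level of 7 of the 10 genes, all but Nfkb2, Relb and Nfkbia, and for Tnfaip3, Nfkbiz and Birc3 their interval lay below every other. How many of all genes are lowest in these cells was not counted.

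Neutrophil-like and macrophage or monocyte-like cells of the same library share its handling, but not their depth per cell. Their medians were 740 and 3342 UMIs in Smad3-WT and 1010 and 2352 UMIs in Smad3-KO. The median ratio between these classes over all genes tested was 0.521 in Smad3-WT and 0.627 in Smad3-KO, and over the 10 genes 1.79 and 3.51. Within Smad3-WT, 4 of the 10 genes were at least 2-fold higher in neutrophil-like cells, where 11.9% of genes were: Nfkbiz at 5.92 (5.26 to 6.66), Tnfaip3 at 4.77 (3.87 to 5.90), Nfkbia at 3.39 (3.22 to 3.57) and Birc3 at 2.12 (1.76 to 2.55). Within Smad3-KO, 9 of the 10 were, where 17.1% of genes were, and Nfkb1 at 1.43 (0.987 to 2.13) was the exception. The ratios of Nfkbiz and Tnfaip3 between these classes had overlapping intervals in both libraries, at 6.32 (5.04 to 8.04) and 5.09 (4.11 to 6.37) in Smad3-KO.

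Tnf, the cytokine that NF-kB both induces and answers to, divided the neutrophil-like cells of each library into those with at least 1 UMI of Tnf and those with 0. Tnf-positive cells were 176 of the Smad3-WT cells (9.65%) and 372 of the Smad3-KO cells (34.4%), and their median depths of 793.5 and 1147.5 UMIs were above those of Tnf-zero cells, at 736 and 964. In Smad3-KO, Tnf was detected in 41.9% of cluster 3, 24.5% of cluster 7, 17.4% of cluster 11 and 6.77% of cluster 1. Tnf-positive and Tnf-zero cells of that library thus differed in their mix of clusters. The part of this mix in the ratios was not tested. In Smad3-WT the shares were 9.39% in cluster 1 and 10.9% in cluster 7. In Smad3-WT, 2 of the 10 genes were at least 2-fold higher in Tnf-positive cells, where 6.19% of genes were. Tnfaip3 stood at 130.01 CPM in Tnf-zero and 347 CPM in Tnf-positive cells, a ratio of 2.67 (1.97 to 3.57), and Rel at 47.8 and 105 CPM, a ratio of 2.19 (1.24 to 3.68). In Smad3-KO, Tnfaip3 stood at 1125 and 2258 CPM, a ratio of 2.01 (1.84 to 2.19), and was the 1 gene of 10 at or above 2-fold, where 1.91% of genes were. Nfkbie at 1.99 (1.39 to 2.87), Rel at 1.92 (1.44 to 2.58) and Nfkbia at 1.63 (1.57 to 1.70) came next there. All 10 ratios were above 1, and the share of all genes above 1 was not counted. The median ratio in Smad3-KO was 1.46 over the 10 genes and 0.941 over all genes tested. The Nfkbia ratio was 1.504 (1.37 to 1.65) in Smad3-WT. Nfkb1 and Nfkb2 had ratios of 0.592 and 0.712 in Smad3-WT, from 9 and 7 UMIs in the Tnf-positive cells, and these intervals include 1. Counts at the 2-fold line moved between 0 and 2 genes in Smad3-KO and between 1 and 4 in Smad3-WT with the settings.

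The libraries also differed among cells without a detected Tnf UMI. Among Tnf-zero cells, 7 of the 10 genes were at least 2-fold higher in Smad3-KO, where 7.44% of genes were, and the median ratio was 2.46. Tnfaip3 had a ratio of 8.65 (7.38 to 10.2) and Tnip1 one of 6.62 (5.15 to 8.60) there. Among Tnf-positive cells, 8 of the 10 were at least 2-fold higher, where 13.2% of genes were, with Tnfaip3 at 6.51 (5.05 to 8.53). The Tnf-zero Smad3-KO cells stood above the Tnf-positive Smad3-WT cells for Tnfaip3 (1125 against 347 CPM), Nfkbia (6118 against 2868 CPM), Nfkbiz (1437 against 600.1 CPM), Tnip1 (367 against 99.1 CPM) and Birc3 (346 against 193 CPM), with no overlap of the intervals. Nfkb1 (157 against 49.5 CPM) and Nfkb2 (125 against 38.5 CPM) also stood apart, from 9 and 7 UMIs in the Tnf-positive Smad3-WT cells. For Rel (109 against 105 CPM), Relb (85.6 against 60.6 CPM) and Nfkbie (71.7 against 88.1 CPM) the intervals overlap. The share of all genes with this order was not counted. Most Smad3-WT neutrophil-like cells lay in cluster 1 and most Smad3-KO ones in cluster 3. These comparisons between libraries therefore set unlike clusters side by side, and the part of the clusters was not tested. A cell with 0 UMIs of Tnf at these depths may still hold Tnf RNA.

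**Figure D4:**
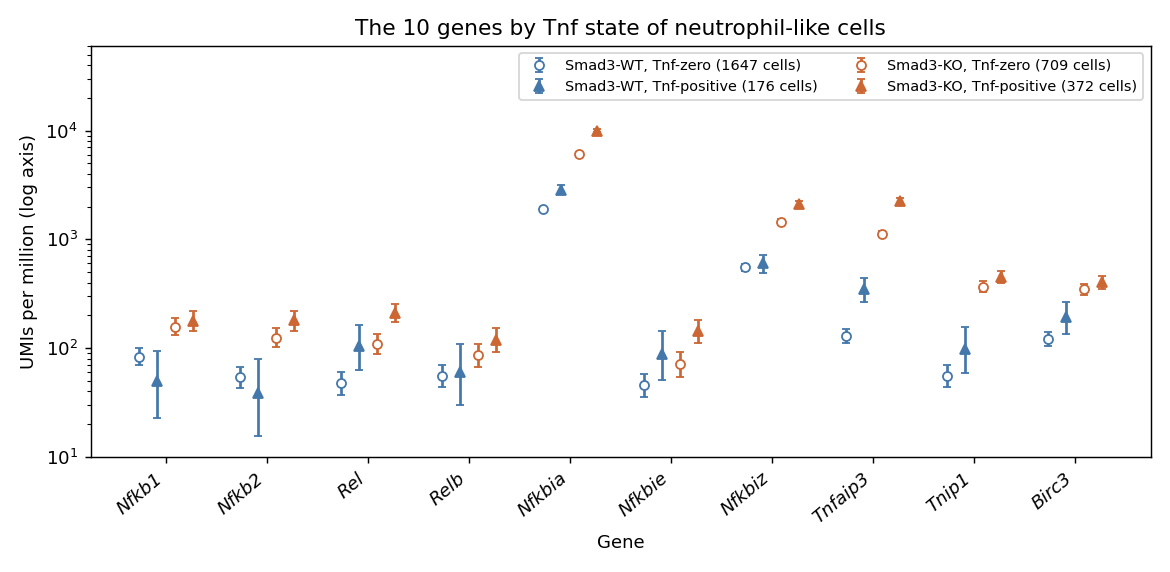
Level of each gene in CPM (log axis) in Tnf-zero (open circles) and Tnf-positive (triangles) neutrophil-like cells of the Smad3-WT (blue) and Smad3-KO library (orange), with exact Poisson intervals at 95%. The Smad3-KO Tnf-zero cells sit above the Smad3-WT Tnf-positive cells for Tnfaip3 (1125 against 347) and Nfkbia (6118 against 2868).

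Other genes of the pathway were read from a list of 50 receptors, adaptors, kinases and inhibitors, of which 44 had at least 20 UMIs in neutrophil-like cells. This list and those of target and stress genes below were chosen with earlier results of these data known, so their counts are a description. Of these, 10 were at least 2-fold higher in Smad3-KO, where 7.75% of all genes were, and 6 at least 2-fold lower, where 18.4% were, with a median ratio of 0.943 against 0.789 over all genes tested. Those with the largest ratios were Traf1, an adaptor of TNF receptors and itself a textbook NF-kB target (41.8 CPM in Smad3-WT and 389 CPM in Smad3-KO, ratio 9.33, 7.22 to 12.2), Malt1, a protease of the CARD-BCL10 complex (ratio 6.64), Nfkbib, which encodes IkB-beta (72.3 and 432 CPM, ratio 5.98, 4.89 to 7.36), Irak3, a kinase-like brake on interleukin-1 and Toll-like receptor signalling (ratio 4.79), and Tnfrsf1b, the second TNF receptor (285 and 1332 CPM, ratio 4.67, 4.21 to 5.19). Those with the smallest were Tlr4, the endotoxin receptor (346.5 CPM in Smad3-WT and 91.5 CPM in Smad3-KO, ratio 0.264, 0.215 to 0.322), Map3k14, the kinase NIK of the non-canonical pathway (ratio 0.351, from 87 and 25 UMIs), and Ikbkg, which encodes NEMO, the scaffold of the IkB kinase (ratio 0.388, from 41 and 13 UMIs). In neutrophil-like cells with 0 UMIs of macrophage or monocyte markers, 6 of the 34 genes of the list with at least 20 UMIs were at least 2-fold higher, where 8.05% of all genes were.

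A list of 51 NF-kB target genes other than the 10 had 41 with at least 20 UMIs, and 17 of them were at least 2-fold higher and 6 at least 2-fold lower in Smad3-KO neutrophil-like cells, beside 7.75% and 18.4% of all genes. Their median ratio was 1.42, and that of all genes 0.789. Those named by size of the ratio were Saa3, an acute-phase protein (8.72 CPM in Smad3-WT and 369 CPM in Smad3-KO, ratio 42.3, 24.96 to 77.9), Csf3, which encodes G-CSF (7.48 and 297 CPM, ratio 39.6, 22.4 to 77.4), Nos2, the inducible nitric oxide synthase (ratio 30.4, from 7 and 174 UMIs), Lcn2, an iron-withholding granule protein (609 and 8685 CPM, ratio 14.3), Sod2, the mitochondrial superoxide dismutase (127 and 1435 CPM, ratio 11.3), and Il1a, an interleukin-1 ligand (ratio 10.98). Tnf itself stood at 194 CPM in Smad3-WT and 770 CPM in Smad3-KO, a ratio of 3.97 (3.49 to 4.53). Traf1 is on this list too. Ccl2, a monocyte chemoattractant, had 125 and 11 UMIs in the Smad3-WT and the Smad3-KO library, a ratio of 0.108 (0.0524 to 0.199). Csf3, Lcn2 and Il1a are also among the neutrophil marker genes that named clusters, and they lead cluster 3, which holds most Smad3-KO neutrophil-like cells. Since the list was chosen with earlier results known, its counts beside those of all genes test nothing.

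Of 20 genes that respond to stress and tissue dissociation, 19 had at least 20 UMIs, 1 was at least 2-fold higher and 5 at least 2-fold lower in Smad3-KO neutrophil-like cells, beside 7.75% and 18.4% of all genes, and the median ratio of 0.714 was near the 0.789 of all genes. Hspa1b, a heat shock protein, had a ratio of 2.09 (1.66 to 2.63), while the immediate early genes Egr1 (0.247), Ier2 (0.348), Ier3 (0.411), Jun (0.430) and Btg2 (0.440) were lower. Ier3 and Junb are also on the list of NF-kB target genes. The part of stress genes in the levels of the 10 genes was not tested.

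**Figure D5:**
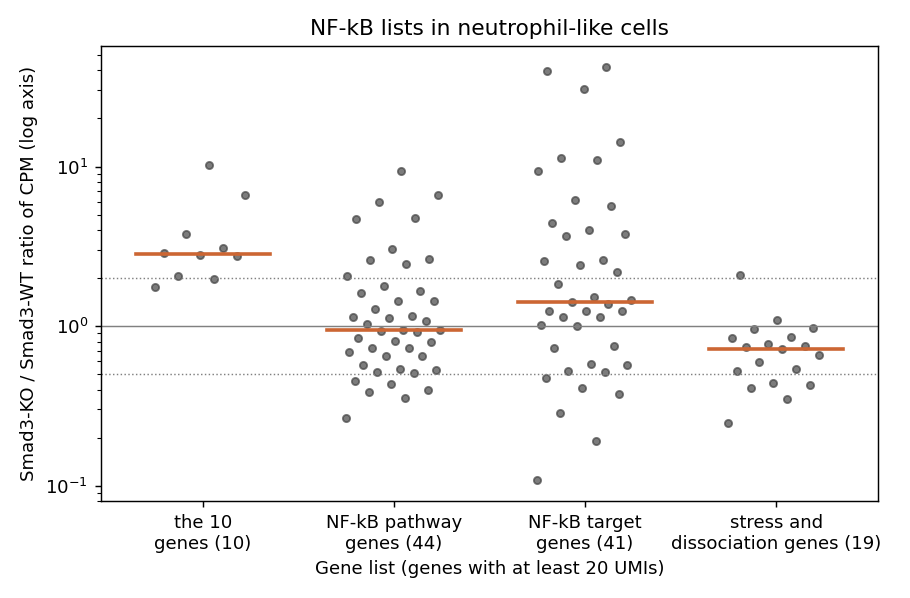
Ratio of CPM between the Smad3-KO and Smad3-WT library in neutrophil-like cells (log axis) for the 10 genes, 44 pathway genes, 41 target genes and 19 stress genes with at least 20 UMIs, 1 point per gene with the median as a bar. The medians are 2.82, 0.943, 1.42 and 0.714, and the dotted lines mark 2-fold higher and lower.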

How the data were processed

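Single-cell RNA of CD11b+Ly6G+ cells was measured in 1 Smad3-WT and 1 Smad3-KO library. The deposited matrix holds raw UMI counts per gene and barcode, which the authors made with Cell Ranger on mm10 (per the labels and methods). The deposited averages, a signal per gene in each genotype, were used only to recognize the genotype of each barcode, and the largest difference from the scaled sums of the matrix was 3.58e-08. Columns of the authors' fold changes and p-values were not used.

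Following the methods, cells needed 200 or more genes, a mitochondrial share below 10% and a total between 500 and 20000 UMIs. Of the 4116 Smad3-WT and 2514 Smad3-KO barcodes, the numbers of cells the study gives, 3520 and 2433 passed. The upper limit removed 382 Smad3-WT and 0 Smad3-KO cells. Clusters came from 2000 variable genes without the 10 genes and Tnf, 100 principal components, 15 neighbours and Louvain resolution 1.0 (scanpy 1.11.5, igraph 0.11.9, seed 1). Resolution 0.1 had been planned but merged macrophage, carcinoma and fibroblast cells, so it became the alternative. A cluster was named when at least 3 markers were in 10% of its cells at 2-fold the level elsewhere (10 CPM added to both), taking the class with the largest share of its markers passing. No doublet caller was used. Counting intervals were tried on group sums simulated from a Poisson model, the model they assume. No cells were simulated, so this cannot show how the intervals hold for UMIs summed over unlike cells. The intervals carry no replicate error. The depth behind a value is its UMIs, and the exact interval of a count of 0 has an upper end above 0. Sums and intervals were made with scipy 1.17.1 and pandas 2.3.3 (numpy 2.4.6) in Python 3.11.15, and plots with matplotlib 3.10.9.

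The 10 genes, the lists and the markers were chosen with earlier results of these data known. Besides the 10 genes and Tnf, text names the 4 leading genes of a neutrophil-like cluster, up to 8 genes per list with at least 2-fold change and 50 UMIs, largest first, the 5 genes of most similar pattern, and markers. Promoter windows are from RefSeq on GRCm38.p6, and gene positions from GENCODE on GRCm38, the same assembly as mm10. Alternatives covered filters, scaling, thinning, clustering and the definition of Tnf-positive cells.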

Additional observations from a re-analysis of the deposited data

Results flagged for a closer look

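In 3 cases, a gene differed between libraries in 1 direction in neutrophil-like cells and in the other direction in another class, with both counting intervals off 1. The differences between classes were not tested, since there is 1 library per genotype. Nfkbie, higher in Smad3-KO neutrophil-like cells (ratio 1.98), had a ratio of 0.400 in macrophage or monocyte-like cells, from 5 Smad3-KO UMIs, and 0 Smad3-KO UMIs remained in cells of this class without S100a8 and S100a9. The mix of clusters in this class differed between libraries, and its part in the ratio was not tested. Nfkb2, with a ratio of 2.80 in neutrophil-like cells, had a ratio of 0.617 in dendritic-like and 0.354 in T or NK-like cells. Without cells holding S100a8 or S100a9, a choice made after seeing the data, the dendritic-like ratio was 0.578 (0.305 to 1.04), whose interval includes 1, and the T or NK-like ratio 0.141. In the latter class the mix of cells differed between libraries too, with 62 Smad3-WT cells at a median of 3372 UMIs and 469 Smad3-KO cells at 1376, and its part in the ratio was not tested.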

How the results depend on the processing

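The count of the 10 genes at least 2-fold higher in Smad3-KO neutrophil-like cells was 8 and lay between 8 and 10 under 13 alternatives, and all 130 single ratios stayed above 1. Tnfaip3 ranged from 10.0 to 13.8 and Relb from 1.42 to 2.37. Median-of-ratios scaling, whose factor in these cells was -0.25 on the log2 scale, so that every ratio became larger, gave 10 genes. In macrophage or monocyte-like cells, thinning to 500 UMIs gave 8 genes in place of 5, and resolution 0.1 gave no value because the class was merged with others. In neutrophil-like cells without UMIs of macrophage or monocyte markers, an alternative chosen after seeing the data as was leaving out cells with S100a8 or S100a9, 6 pathway genes were at least 2-fold higher in place of 10. For Tnf-positive Smad3-WT cells, the 2 genes became 1 at resolution 0.1 and with classes from marker UMIs in each cell, and 4 when averaged over cells. For Tnf-positive Smad3-KO cells, the 1 gene became 0 at resolution 0.1 and without the cluster led by Ngp, Camp and Ltf, and 2 with at least 2 UMIs of Tnf, averaged over cells, in cells of 500 to 2000 UMIs, without the quality filter and in cells without macrophage or monocyte markers. The Tnfaip3 ratio itself ranged from 1.86 to 2.35 in Smad3-KO and from 2.25 to 3.08 in Smad3-WT. The causes were not tested. Depth limits the 4 subunits, Nfkbie and Tnip1, with 81 to 128 UMIs each in Smad3-WT neutrophil-like cells. No paired analysis was possible because each group has 1 library.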

Other observations

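Over the same 12 groups of class and library, 7343 genes were ranked by how closely their log2(CPM + 10) followed the mean of the 10 genes. The groups share libraries and differ in depth, so the correlations are a description. The 5 closest were Mreg, a melanoregulin gene (Pearson r 0.963), Icam1, which encodes the adhesion molecule ICAM-1 (0.960), Cflar, which encodes the caspase-8 inhibitor c-FLIP (0.958), Gadd45b, a stress-response gene (0.953), and Cd274, which encodes PD-L1 (0.949). In neutrophil-like cells, Mreg stood at 43.6 CPM in Smad3-WT and 434 CPM in Smad3-KO (ratio 9.94, 7.75 to 12.9), and Cd274 at 520 and 2136 CPM (ratio 4.10, 3.80 to 4.44). Icam1, Cflar and Gadd45b are on the list of NF-kB targets, with ratios of 6.13, 2.59 and 3.78.

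Among the 10 genes themselves, the closest pairs were Nfkbia and Nfkbiz (r 0.945) and Nfkb1 and Birc3 (0.943), followed by Tnfaip3 and Tnip1 (0.938). The loosest were Relb with Nfkbiz (0.300) and with Nfkbia (0.365).

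Smad3 itself stood at 18.1 CPM (29 UMIs) in neutrophil-like cells of the Smad3-WT library and at 171 CPM (224 UMIs) in those of the other. The position of these UMIs on the transcript was not examined.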
